A study of Mus musculus with 16 samples.

Results

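Slc12a5 and Slc12a2 encode the main chloride cotransporters of brain cells, and their transcripts were followed here in the hippocampus of mice exposed to inescapable shock. Earlier results of these data had selected 1 Slc12a5 transcript on its FPKM in LH vs. Ctrl. The members were then chosen by name, as every transcript listed under Slc12a5 or Slc12a2, which gave 9 of 80137 transcripts, 8 for Slc12a5 and 1 for Slc12a2, from 2 of 18287 gene names. FPKM is a fragment count divided by transcript length and library size. Because LH vs. Ctrl selected the transcript, values of Slc12a5 are given there without a p. So are those in NLH vs. Ctrl, which uses the same Ctrl mice and whose result was known. The selected transcript is given without a p in LH vs. NLH and Ctrl vs. HC too, each of which uses a group of the selecting comparison. Counts over the 9 transcripts include it and are descriptions. In NLH vs. HC, tests of values that hold it were run with the NLH vs. Ctrl result known. They are no independent check.

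Slc12a5 codes for KCC2, which is found in neurons and carries potassium and chloride out of the cell. It keeps neuronal chloride low, so that GABA and glycine inhibit mature neurons. Slc12a2 codes for NKCC1, which brings sodium, potassium and chloride into cells. It is known from immature neurons, glia and vessels and is abundant in the epithelium of the choroid plexus, which secretes cerebrospinal fluid. The balance between these transporters sets the direction of chloride flow through GABA-A receptors. Slc12a5 starts from alternative first exons, called 1a and 1b, which give the KCC2a and KCC2b proteins with different amino ends.

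All 16 mice were male wild-type C57BL/6 mice of 3 months, 4 in each group. Homecage (HC) mice were never handled, stayed in their cages and received neither shocks nor escape trials. Control (Ctrl) mice had 30 escape trials at 0.4 mA without earlier inescapable shocks. The remaining mice went through the trials after 180 inescapable shocks (0.4 mA) and were divided by their escape behavior into helpless (LH) and not helpless (NLH) mice, so that LH and NLH were not assigned but sorted. Both hippocampi of a mouse were pooled into 1 library, with tissue taken 3 h after the test. In such tissue, fewer cells of a type and less RNA per cell cannot be told apart.

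Estimated depth was 20100000 to 38050000 fragments per mouse. By mouse it was 27950000, 23700000, 24600000 and 20100000 in LH mice, of which the lowest 3 were the lowest of the 16, and 26850000 to 38050000 in the other groups. Depth thus moved with the LH group, and its part in the LH values was not tested. LH replicates 3 and 4 stood apart, with 10846 and 15504 transcripts listed at 0, where the other mice had 4872 to 7352. Hippocampal markers summed to 80.8 to 132 FPKM, striatal markers to 7.53 to 18.3 FPKM and neuron markers (6 of 8 listed) to 548 to 729 FPKM. No listed gene of the 10 marker lists was at 0 in all mice.

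The Slc12a5 gene (ENSMUSG00000017740) lies on the plus strand at chr2:164960802-164999731 of GRCm38. Slc12a5-207 (ENSMUST00000202223.3, 1133 codons) and Slc12a5-209 (ENSMUST00000202623.3, 1138 codons) start at exon 1a, and Slc12a5-201 (ENSMUST00000099092.7, 1115 codons) starts at exon 1b. These are the full-length coding transcripts. The first exons give the proteins different starts, and the coding part of exon 1a, where the highest transcript begins, is shown with the start codon in capitals (chr2:164960883-164961003, plus strand, GENCODE vM21).
exon 1a: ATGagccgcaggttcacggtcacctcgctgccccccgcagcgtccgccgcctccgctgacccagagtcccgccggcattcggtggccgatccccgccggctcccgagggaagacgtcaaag
A 15-base exon at chr2:164996864-164996878, GGAGTGGGAAAACTT, is held by Slc12a5-201 and Slc12a5-209 and is absent from Slc12a5-207. The last exon has 2343 bases in Slc12a5-207 and 190 bases in Slc12a5-209.

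The transcript that earlier results had selected is Slc12a5-208 (ENSMUST00000202479.3), called the short transcript from here on. It has 7 exons, 1202 bases and 231 codons, and begins in exon 1b. The annotation gives it support level 5, the weakest, and a tag that no evidence from the organism supports it. All of its 1202 bases also lie inside exons of Slc12a5-201. What it does not share is 1 junction, from chr2 position 164976460 inside exon 6 to position 164999199 inside the last exon, which spans 22738 bases and skips 19 exons whole. The junction lands 1727 bases after the full-length stop codon, with 169 codons before it and 62 after it. No other annotated Slc12a5 transcript has it. The bases around it are shown because only fragments that span the junction set this model apart from the full-length transcript. These have a read across it or paired reads on either side. Capitals mark the 15 bases after the junction point in each line.
short transcript across its junction: ctacatgatttccagACTCTGGTTGGCAAG
full-length transcript in exon 6: ctacatgatttccagGTCTCTGGGCCCGGA
last exon at the landing point: atgacctgggcccagACTCTGGTTGGCAAG
The spanned stretch begins with GT and ends with AG, and the 4 bases before the junction are the same at both of its ends. Apart from this junction, every single read of the short transcript can also be placed on Slc12a5-201. Reads over the junction and pairs around it were not analysed here.

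**Figure D1:**
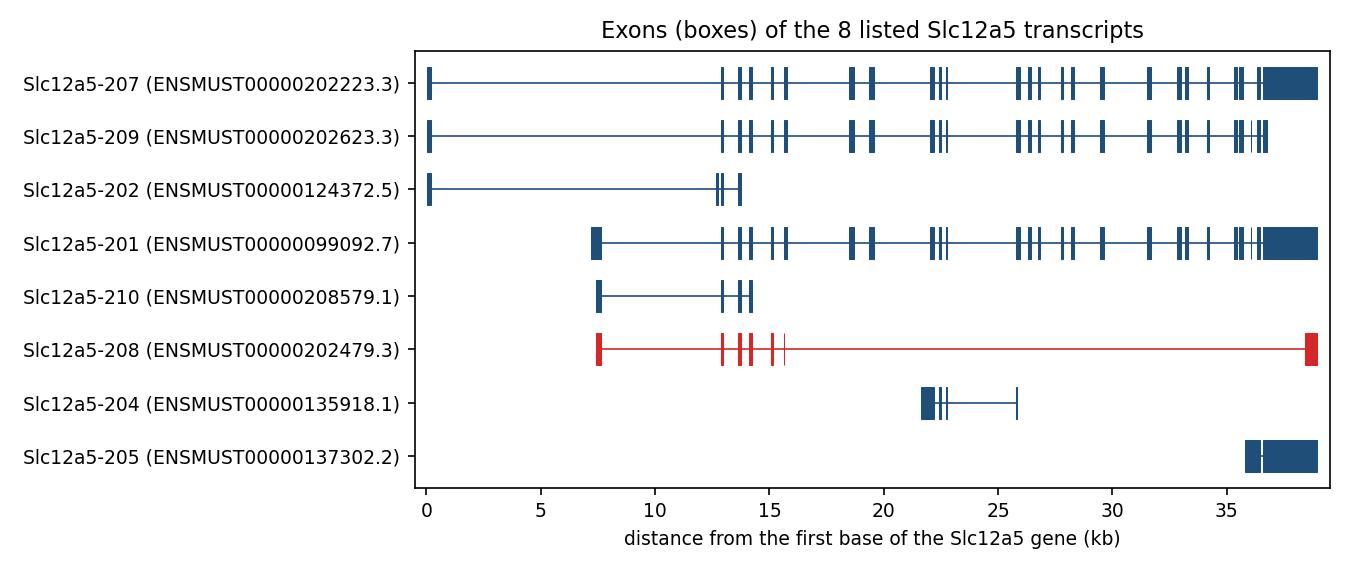
Exons of the 8 listed Slc12a5 transcripts as boxes, against the distance in kb from the first base of the gene. The short transcript (Slc12a5-208) passes from exon 6 to the last exon, while the 3 full-length transcripts hold 25 or 26 exons.

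The bases just before each first exon are shown because transcripts that start at 1a and 1b are compared below. They are the upstream parts of the RefSeq promoter windows of GRCm38.p6 (chr2:164960596-164960801 and chr2:164967738-164967982, plus strand), and capitals mark CACGTG.
upstream of exon 1a: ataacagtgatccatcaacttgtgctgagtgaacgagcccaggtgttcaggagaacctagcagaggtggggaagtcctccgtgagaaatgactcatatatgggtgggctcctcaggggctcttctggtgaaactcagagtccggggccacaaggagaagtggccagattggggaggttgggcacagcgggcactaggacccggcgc
upstream of exon 1b: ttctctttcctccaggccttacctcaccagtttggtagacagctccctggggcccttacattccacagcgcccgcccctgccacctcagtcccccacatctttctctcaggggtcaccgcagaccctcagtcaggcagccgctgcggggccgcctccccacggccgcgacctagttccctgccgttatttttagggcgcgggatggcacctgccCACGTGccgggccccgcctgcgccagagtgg
The whole windows were searched on both strands for CACGTG (an E-box, bound by USF proteins), GCGTGGGCG and GCGGGGGCG (bound by EGR proteins) and TGACGTCA (the cyclic AMP response element). The exon 1b window held CACGTG once, at chr2:164967952-164967957, as did 7.15% of all 32851 promoter windows at least once. Neither window held another of these motifs, which occur in 0.612%, 2.91% and 1.79% of all windows. The printed bases were 57.3% G or C before exon 1a and 66.5% before exon 1b.

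Summed over its transcripts, Slc12a5 had a mean of 32.0 FPKM over the 16 mice, rank 535 of 18287 genes. Slc12a2 (ENSMUSG00000024597, GRCm38 chr18:57878678-57946821) had 7.72 FPKM, rank 3317. By mean FPKM, a scale per length, the order of the named transcripts over the 16 mice was Slc12a5-207, the short transcript, Slc12a2-201, Slc12a5-201, Slc12a5-204 and Slc12a5-209. In HC and in Ctrl mice the mean of the short transcript (6.10 and 5.43 FPKM) was below that of Slc12a2-201 (7.48 and 7.12 FPKM), so that this order does not hold in every group. In HC mice Slc12a5-207 took 45.6 ± 3.77% (SD, n = 4) of Slc12a5 FPKM, the short transcript 20.2 ± 2.72%, Slc12a5-201 14.4 ± 5.44%, the retained-intron model Slc12a5-204 (ENSMUST00000135918.1) 12.1 ± 2.37% and Slc12a5-209 3.98 ± 3.03%. The ranges of Slc12a5-201 overlapped those of the short transcript and of Slc12a5-204 there. Slc12a5-205 (ENSMUST00000137302.2) reached at most 1.47 FPKM. Slc12a5-202 (ENSMUST00000124372.5) reached 0.292 FPKM in 1 Ctrl mouse, and Slc12a5-210 (ENSMUST00000208579.1) 0.217 FPKM in an HC mouse.

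The short transcript was higher in every mouse that had received inescapable shocks than in every mouse that had not, a separation that includes the LH and Ctrl values that selected it and that 0.126% of all transcripts showed in this direction. By FPKM, the HC mice had 7.05, 4.73, 6.43 and 6.19, the Ctrl mice 6.66, 3.99, 6.00 and 5.06, the NLH mice 11.5, 11.3, 8.31 and 8.45 and the LH mice 12.1, 13.6, 13.3 and 11.4. LH and NLH mice overlapped, with the lowest LH value just under the highest NLH value. Group means were 6.10 ± 0.982 (HC), 5.43 ± 1.16 (Ctrl), 9.88 ± 1.74 (NLH) and 12.6 ± 1.008 (LH) FPKM (SD, n = 4 each).

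In LH vs. Ctrl, the comparison that selected it, the log2 difference was 1.22 (SE 0.17), and in NLH vs. Ctrl it was 0.86 (SE 0.17). NLH vs. HC shares no mouse with LH vs. Ctrl, though its limma SE comes from the spread within all groups, LH and Ctrl among them. In NLH vs. HC the short transcript was higher in 4 of 4 NLH mice, by 0.68 on the log2 scale (SE 0.17, 95% interval 0.33 to 1.04). An exact permutation test of the FPKM gave p = 0.0286, the smallest two-sided value that 4 mice against 4 allow (0.514 adjusted over 18 such tests), whereas limma over all transcripts gave an adjusted p of 0.357, which did not pass. HC mice were not handled, never entered the shuttle box and had neither shocks nor trials, so in this comparison handling, the box, shocks and trials cannot be told apart. LH vs. NLH, which shares the LH mice with the selecting comparison, gave 0.36 (SE 0.17). Ctrl vs. HC, which shares the Ctrl mice with it, gave -0.18 (SE 0.17). Of the 18 exact tests on named transcripts, 1 gave an unadjusted p under 0.05.

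**Figure D2:**
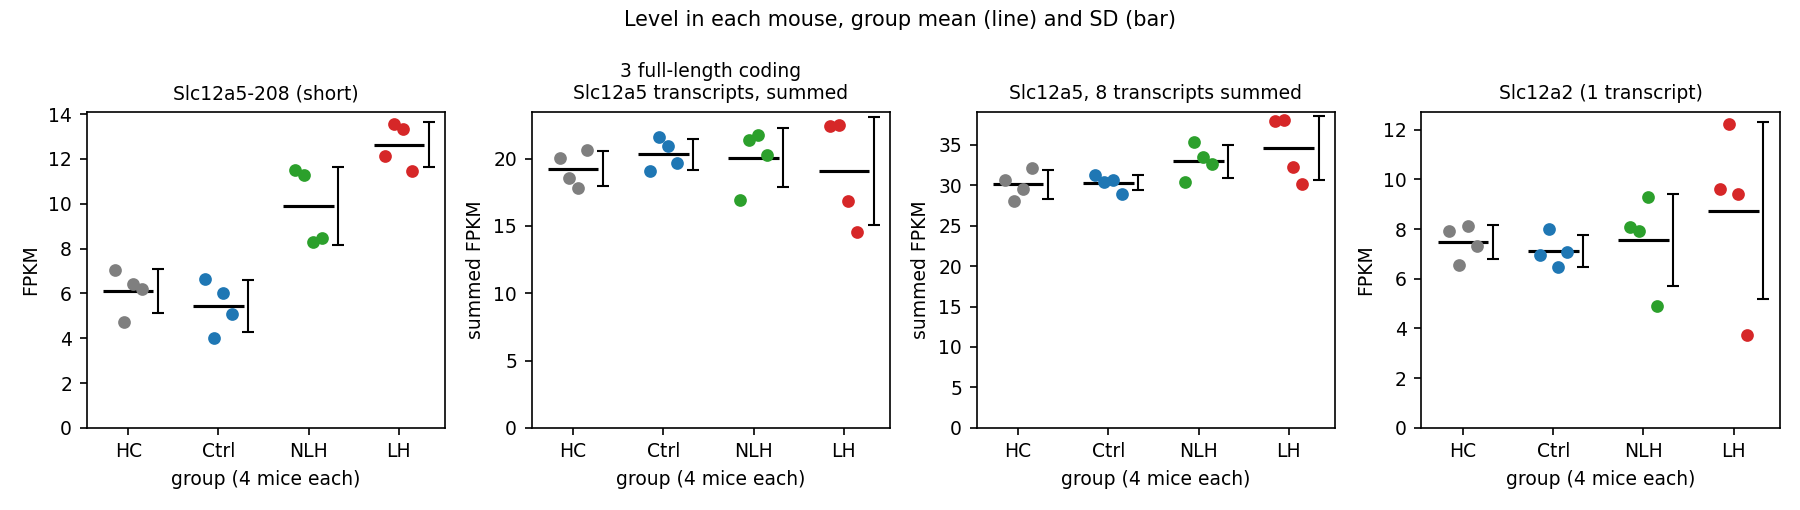
FPKM by mouse and group (points), with the mean (line) and SD (bar), for the short transcript, the 3 full-length coding Slc12a5 transcripts summed, all 8 Slc12a5 transcripts summed and Slc12a2. Values of the short transcript start at 8.31 FPKM in NLH and 11.4 FPKM in LH mice, above the highest HC value of 7.05 FPKM.

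Over the 9 transcripts of both genes, limma at an adjusted p under 0.05 called 0 in Ctrl vs. HC (0.00374% of all transcripts called), 0 in NLH vs. Ctrl (0.0125%), 0 in LH vs. NLH (0.0412%) and 0 in NLH vs. HC (0.0237%). In LH vs. Ctrl it called 1 (0.0462% of all transcripts), the short transcript, which follows from its selection on those values and is no test. At an unadjusted p under 0.05, limma placed 1 of the 9 in Ctrl vs. HC (3.45% of all transcripts), 2 in NLH vs. Ctrl (5.12%), 2 in LH vs. Ctrl (10.7%), 1 in LH vs. NLH (8.72%) and 3 in NLH vs. HC (5.59%). The short transcript was among them in each comparison but Ctrl vs. HC. Of these comparisons, only NLH vs. HC compares groups without a mouse of its selection. The limma p there still rests in part on the LH and Ctrl mice, because the fit takes the spread of a transcript from all groups. Groups did not overlap for 0 of 9 transcripts in Ctrl vs. HC (4.52% of all transcripts), 1 in NLH vs. Ctrl (5.07%), 1 in LH vs. Ctrl (5.94%), 0 in LH vs. NLH (3.23%) and 2 in NLH vs. HC (5.39%). The transcript in NLH vs. Ctrl and in LH vs. Ctrl was the short one. In NLH vs. HC they were the short transcript, higher, and Slc12a5-205, lower.

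The full-length coding transcripts, which encode the KCC2 proteins, passed no test when summed. By summed FPKM, the HC mice had 20.0, 18.5, 17.8 and 20.7, the Ctrl mice 19.1, 21.6, 20.9 and 19.7, the NLH mice 16.9, 21.4, 21.8 and 20.2 and the LH mice 22.4, 22.5, 16.9 and 14.6. All groups overlapped, and the lowest value was that of LH replicate 4. NLH differed from HC by 0.819 FPKM (SE 1.27, exact permutation p = 0.543), LH from NLH by -0.998 FPKM (SE 2.28, exact permutation p = 0.743) and Ctrl from HC by 1.06 FPKM (SE 0.865, exact permutation p = 0.257). The NLH vs. HC difference was 0.254 FPKM without NLH replicate 3 and 1.86 without NLH replicate 1, the lowest and highest with 1 mouse left out, and Ctrl vs. HC was 0.588 FPKM without HC replicate 3 and 1.53 without HC replicate 4. The LH vs. NLH difference became 0.508 FPKM without LH replicate 4 and 2.36 FPKM without LH replicates 3 and 4, so that its direction rests on LH replicate 4. Without the short transcript, the gene summed to 24.0 ± 1.32 (HC), 24.9 ± 1.101 (Ctrl), 23.1 ± 2.84 (NLH) and 22.0 ± 3.67 (LH) FPKM.

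Among the listed full-length models only Slc12a5-207 lacks the 15-base exon, and none starts at exon 1b without that exon. How reads of such a transcript would be divided was not tested. The FPKM of these models, and sums by first exon, therefore do not settle which first exon is used more. Slc12a5-207 (KCC2a) had 13.7 ± 1.76 (HC), 14.5 ± 3.43 (Ctrl), 13.9 ± 2.90 (NLH) and 15.5 ± 3.14 (LH) FPKM. Its log2 difference was 0.00 in NLH vs. HC (SE 0.18, limma adjusted p = 1.00) and 0.16 in LH vs. NLH (SE 0.18, limma adjusted p = 0.787). Slc12a5-201 (KCC2b) spread widely between mice. By FPKM, the HC mice had 3.37, 5.93, 4.87 and 2.95, the Ctrl mice 5.15, 6.85, 0.930 and 5.12, the NLH mice 4.37, 0.996, 6.96 and 6.25 and the LH mice 8.34, 2.19, 0.496 and 7.15e-04. LH mice held both the highest and the lowest of the 16 values, and LH replicates 3 and 4, the libraries that stood apart, were the lowest of that group. LH vs. NLH gave -1.89 on the log2 scale (SE 1.05, limma adjusted p = 0.645), and 0.19 without these 2 libraries. Slc12a5-209 (KCC2a with the 15-base exon) reached at most 2.74 FPKM and had means of 1.23 ± 0.952 (HC), 1.32 ± 0.964 (Ctrl), 1.55 ± 0.787 (NLH) and 0.792 ± 1.006 (LH) FPKM.

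Transcripts were also grouped by first exon, after their values had been seen. Those that start at exon 1a summed to 14.98 ± 2.58 (HC), 15.9 ± 2.77 (Ctrl), 15.4 ± 3.41 (NLH) and 16.3 ± 2.83 (LH) FPKM, and those that start at exon 1b, the short transcript among them, to 10.5 ± 0.892 (HC), 9.94 ± 2.12 (Ctrl), 14.5 ± 1.59 (NLH) and 15.4 ± 3.84 (LH) FPKM. For exon 1b, every NLH mouse (12.3 to 15.9 FPKM) was above every HC mouse (9.35 to 11.5 FPKM) and every Ctrl mouse (6.93 to 11.8 FPKM), and NLH vs. HC gave a difference of 4.04 FPKM (SE 0.910, exact permutation p = 0.0286, 0.386 adjusted over 27 tests). The short transcript alone differed there by 3.78 FPKM (SE 0.998). For exon 1a the difference was 0.455 FPKM (SE 2.14, exact permutation p = 0.886). The exon 1b share of both sums was 41.5 ± 5.97% in HC and 48.9 ± 7.85% in NLH mice (exact permutation p = 0.171). In LH vs. NLH the exon 1b sums differed by 0.854 FPKM, and by -0.849 FPKM without LH replicate 1. These groupings, the sums and the ratios and fragment shares given later took 27 exact tests, of which 2 gave an unadjusted p under 0.05 and none an adjusted one.

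The retained-intron models, which code for no protein, had lower means in NLH and LH than in HC and Ctrl mice. For Slc12a5-204, the HC mice had 2.64, 3.64, 4.15 and 4.05, the Ctrl mice 3.99, 3.99, 3.15 and 2.98, the NLH mice 1.88, 1.92, 2.69 and 3.21 and the LH mice 3.15, 1.97, 1.87 and 3.63 FPKM, and all groups overlapped. NLH vs. HC gave -0.57 on the log2 scale (SE 0.23, limma adjusted p = 0.823, exact permutation p = 0.0857 for FPKM). For Slc12a5-205, the HC mice had 0.922, 1.13, 0.973 and 1.05, the Ctrl mice 1.47, 0.604, 0.538 and 1.28, the NLH mice 0.0974, 0.847, 0.755 and 0.701 and the LH mice 0.260, 7.12e-07, 0.170 and 0.595 FPKM. HC and NLH mice did not overlap in it, with a log2 difference of -0.90 (SE 0.57, limma adjusted p = 0.945). It fell below the naming rule and is named because its values had been seen.

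As a share of Slc12a5 FPKM, the short transcript took 20.2 ± 2.72 (HC), 17.9 ± 3.55 (Ctrl), 30.1 ± 6.01 (NLH) and 36.7 ± 3.92 (LH) percent. NLH mice ran from 24.8 to 37.8% and HC mice from 16.9 to 23.0%, with no overlap. The difference of 9.87 percentage points (SE 3.30) gave an exact permutation p of 0.0286 (0.429 adjusted over 15 tests of shares). LH vs. NLH differed by 6.63 points (SE 3.59) and Ctrl vs. HC by -2.35 points (SE 2.24). Of the tests of shares, 1 gave an unadjusted p under 0.05. The share of Slc12a5-204 was 12.1 ± 2.37% in HC and 7.36 ± 1.98% in NLH mice (exact permutation p = 0.0571). In NLH vs. Ctrl this share differed by -4.25 points (SE 1.25), and NLH mice (5.42 to 9.84%) did not overlap Ctrl mice (10.3 to 13.1%), though they did in FPKM. Shares are parts of a whole, so that a higher share of the selected short transcript, 12.2 points here, lowers the others. Its part in this difference was not tested, and how often other isoforms separate by share was not counted. Counted in estimated fragments rather than per length, the short transcript took 5.30 ± 0.850 (HC), 4.55 ± 1.13 (Ctrl), 8.27 ± 2.03 (NLH) and 10.9 ± 1.94 (LH) percent of the gene, which is 152 to 226 fragments per HC or Ctrl mouse and 230.3 to 348 per NLH or LH mouse.

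**Figure D3:**
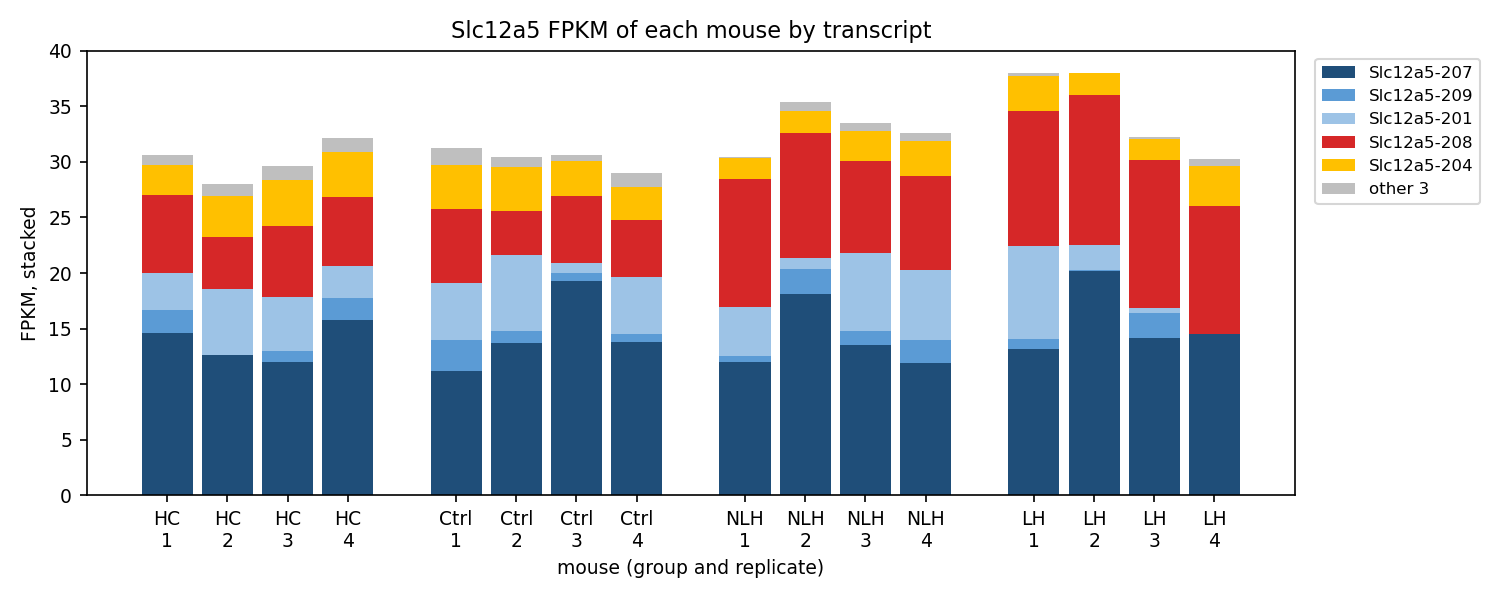
FPKM of the Slc12a5 transcripts stacked for each of the 16 mice, so that the height of a bar is the summed FPKM of the gene. The layer of the short transcript is 6.10 FPKM on average in HC and 12.6 FPKM in LH mice.

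Summed over all its transcripts, Slc12a5 was at 30.1 ± 1.74 (HC), 30.3 ± 0.952 (Ctrl), 32.98 ± 2.06 (NLH) and 34.6 ± 3.99 (LH) FPKM. HC mice ran from 28.03 to 32.2, Ctrl mice from 29.0 to 31.2, NLH mice from 30.4 to 35.4 and LH mice from 30.2 to 38.0 FPKM, so that all groups overlapped. NLH vs. HC gave a log2 difference of 0.13 (SE 0.09, 95% interval -0.06 to 0.32, limma adjusted p = 0.870), beside a median of 0.11 over genes with a mean FPKM of at least 1. LH vs. NLH gave 0.06 (SE 0.09) and Ctrl vs. HC 0.01 (SE 0.09), sums that hold the selected transcript. In LH vs. Ctrl the value was 0.18 (SE 0.09), and 0.32 without LH replicates 3 and 4.

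Slc12a2, the gene of NKCC1, was listed with 1 transcript, Slc12a2-201 (ENSMUST00000115366.2). By FPKM, the HC mice had 7.92, 6.57, 8.12 and 7.30, the Ctrl mice 6.95, 7.995, 6.46 and 7.07, the NLH mice 8.09, 7.94, 9.28 and 4.91 and the LH mice 9.59, 12.2, 9.40 and 3.75. The lowest values of all mice were those of replicate 4 of LH and of NLH, and the highest was that of LH replicate 2. Log2 differences of the gene were -0.07 in Ctrl vs. HC, 0.05 in NLH vs. Ctrl, 0.12 in LH vs. NLH and -0.02 in NLH vs. HC (SE 0.27 each, lowest limma adjusted p = 0.938). The 95% interval in NLH vs. HC was -0.60 to 0.56, and changes within it were not detectable at this spread. LH vs. Ctrl gave 0.18, which became 0.54 without LH replicate 4 and -0.024 without LH replicate 2.

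Choroid plexus markers (7 of 7 listed: Ttr, Folr1, Kl, Otx2, Kcnj13, Clic6 and Aqp1) moved with Slc12a2. Their summed FPKM ran from 3.399 to 41.1 (HC), 18.3 to 54.4 (Ctrl), 4.41 to 67.4 (NLH) and 2.57 to 96.6 (LH). It was 4.41 in NLH replicate 4, 2.57 in LH replicate 4 and 96.6 in LH replicate 2, the mice with the lowest and highest Slc12a2. Over 16 mice, log2 levels gave Pearson's r = 0.879 (permutation p = 1e-05, the smallest that 100000 permutations can give) and Spearman's rho = 0.821 (permutation p = 0.0002). Without the 2 mice farthest from the median of the markers, LH replicate 4 and HC replicate 2, r was 0.891, and after removal of group means it was 0.910. Marker by marker it ran from 0.797 (Kcnj13) to 0.949 (Otx2). Oligodendrocyte markers gave r = 0.765 (permutation p = 0.0016, rho = 0.653 with permutation p = 0.0074) and r = 0.580 without their 2 farthest mice. For oligodendrocyte precursor markers r was 0.697 (permutation p = 0.0071, rho = 0.379) and 0.392 without the 2 farthest, and for astrocyte markers 0.569 (permutation p = 0.023, rho = 0.247) and -0.0765. After removal of group means, r was 0.812 for oligodendrocyte, 0.822 for precursor and 0.638 for astrocyte markers. Endothelial markers gave r = -0.255 (permutation p = 0.33, rho = 0.221), r = 0.362 without LH replicate 4 and HC replicate 2, and r = -0.471 after removal of group means. The part of these markers in the Slc12a2 values was not tested.

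The Slc12a5 sum holds the selected transcript, with the LH and Ctrl values that selected it, so that its relations with both marker lists are descriptions. Slc12a5 ran with the neuron markers, with r = 0.866 (permutation p = 3e-05) and rho = 0.779 (permutation p = 0.00055). Without LH replicates 1 and 2 r was 0.708, and after removal of group means 0.791. Snap25 made up 51.8% of the summed FPKM of these markers, and r was 0.828 without it. Marker by marker, r ran from 0.630 (Map2) to 0.850 (Syt1) in 5 of the 6 and was -0.398 for Rbfox3, whose means were 22.8 (HC), 21.6 (Ctrl), 19.6 (NLH) and 18.0 (LH) FPKM. With choroid plexus markers its r was 0.531 (permutation p = 0.033, rho = 0.559) and 0.398 without LH replicate 4 and HC replicate 2, and 0.679 after removal of group means. These 7 relations were chosen after the values had been seen, and their adjusted p (Benjamini-Hochberg) ran from 7e-05 to 0.33. Levels of all genes of a library share its scaling.

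**Figure D4:**
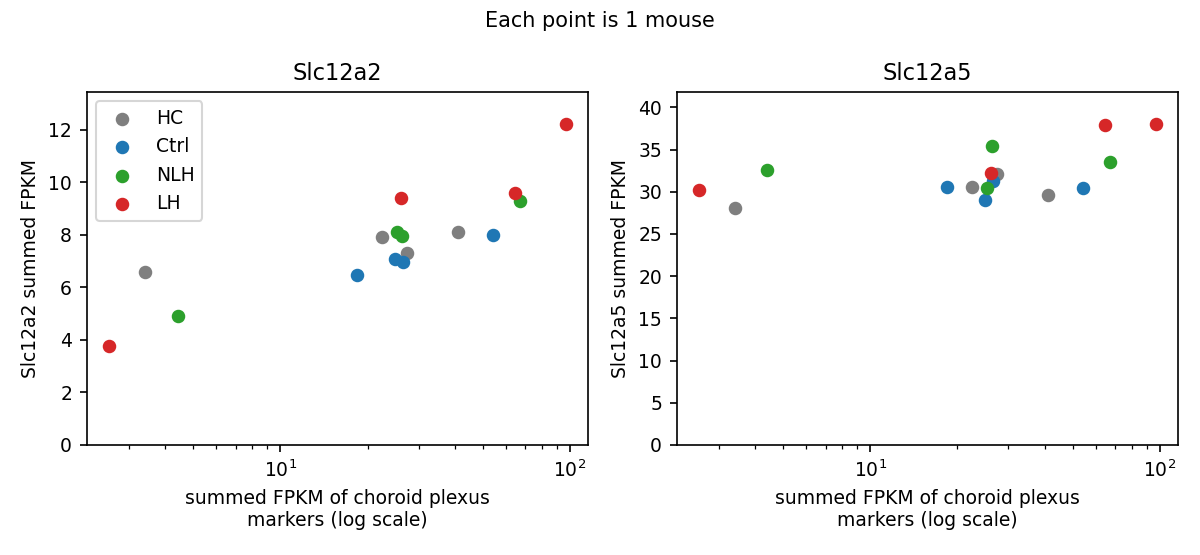
FPKM of Slc12a2 and of Slc12a5 against the summed FPKM of 7 choroid plexus markers on a log axis, with 1 point per mouse and colors for the groups. Slc12a2 is 3.75 FPKM at the lowest marker sum, 2.57, and 12.2 FPKM at the highest, 96.6.

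The ratio of Slc12a5 to Slc12a2 FPKM passed no test. By mouse, the HC mice had 3.87, 4.27, 3.64 and 4.41, the Ctrl mice 4.50, 3.81, 4.74 and 4.10, the NLH mice 3.76, 4.46, 3.61 and 6.63 and the LH mice 3.96, 3.11, 3.43 and 8.06. Replicate 4 of NLH and of LH, the mice with the lowest Slc12a2, had the highest ratios, and the remaining values of all groups lay between 3.11 and 4.74. The mean log2 ratio was 2.01 (HC), 2.09 (Ctrl), 2.16 (NLH) and 2.10 (LH). Exact permutation tests gave p = 0.400 for Ctrl vs. HC (difference 0.08, SE 0.09), p = 0.8286 for LH vs. NLH (-0.06, SE 0.37) and p = 0.629 for NLH vs. HC (0.15, SE 0.21), with an adjusted p of 0.8286 for each of the 3. The ratio holds the selected transcript, and of these comparisons only NLH vs. HC uses no mouse of its selection. LH vs. Ctrl gave 0.01 (SE 0.32), and -0.29 without LH replicate 4. NLH vs. HC gave -0.039 without NLH replicate 4.

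With the full-length coding Slc12a5 transcripts alone, the ratio was 2.59 ± 0.301 (HC), 2.87 ± 0.249 (Ctrl), 2.81 ± 0.905 (NLH) and 2.46 ± 0.977 (LH). By mouse, the HC mice had 2.53, 2.82, 2.19 and 2.83, the Ctrl mice 2.75, 2.70, 3.24 and 2.78, the NLH mice 2.09, 2.69, 2.35 and 4.12 and the LH mice 2.34, 1.84, 1.79 and 3.88. Replicate 4 was the highest of LH and of NLH, and all groups overlapped. On the log2 scale NLH vs. HC differed by 0.07 (SE 0.23, exact permutation p = 0.800), LH vs. NLH by -0.22 (SE 0.34, exact permutation p = 0.486) and Ctrl vs. HC by 0.15 (SE 0.11, exact permutation p = 0.286). NLH vs. HC was -0.13 without NLH replicate 4 and -0.0034 without HC replicate 3. LH vs. NLH was -0.46 without LH replicate 4 and -0.015 without NLH replicate 4.

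**Figure D5:**
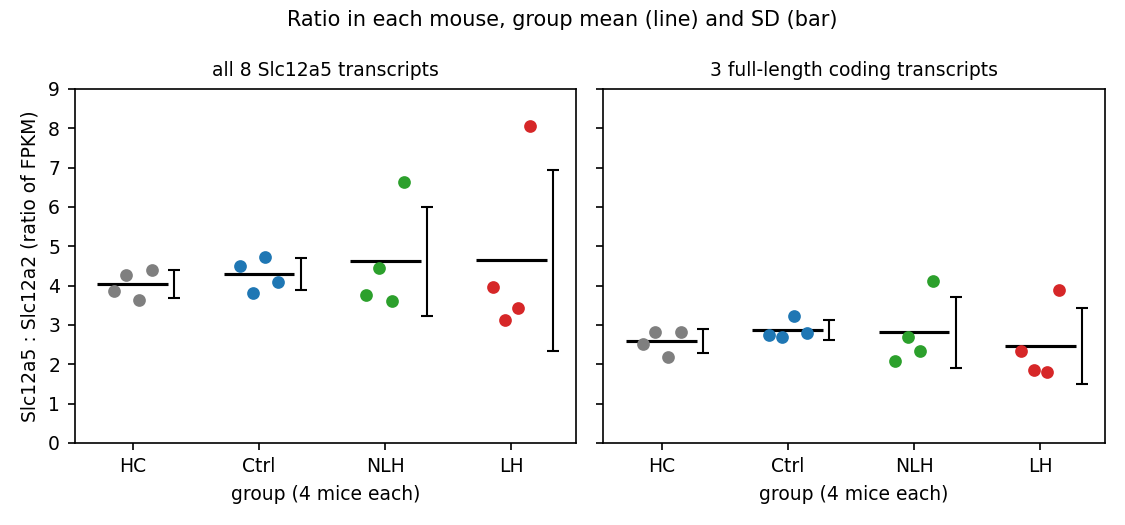
Ratio of Slc12a5 to Slc12a2 FPKM by mouse and group (points), with the mean (line) and SD (bar), from all 8 Slc12a5 transcripts or from the 3 full-length coding ones. The highest points, 6.63 and 8.06 with all Slc12a5 transcripts, are replicate 4 of NLH and of LH.

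Over the 16 mice, the genes whose level ran most like Slc12a5, of 10435 compared, were Gpd1l (r = 0.928, rho = 0.838), Mapk9 (r = 0.907), Tppp (r = 0.905), Lonrf2 (r = 0.902) and Atp5c1 (r = 0.897). For Slc12a2 they were Cdk19 (r = 0.949, rho = 0.900), Clcn4 (r = 0.941), Nbas (r = 0.940), Tmem237 (r = 0.940) and Zmpste24 (r = 0.939). Slc12a5 with Slc12a2 gave r = 0.527 and rho = 0.497. These are descriptions over mice that share library scaling and group.

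Other genes of chloride handling came from 5 lists, and 44 of their genes, with Slc12a5 and Slc12a2 among them, were in the table. Limma on gene sums called 0 of the 44 at an adjusted p under 0.05 in each of the 5 comparisons, where over all genes it called 0% in Ctrl vs. HC, 0.00547% in NLH vs. Ctrl, 0% in LH vs. Ctrl, 0.0109% in LH vs. NLH and 0.0219% in NLH vs. HC. At an unadjusted p under 0.05 it placed 0 of 44 in Ctrl vs. HC (2.7% of all genes), 3 in NLH vs. Ctrl (6.82%, all genes 5.59%), 7 in LH vs. Ctrl (15.9%, all genes 11.5%), 3 in LH vs. NLH (6.82%, all genes 7.54%) and 3 in NLH vs. HC (6.82%, all genes 6.91%).

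In the SLC12 family, 7 of 9 genes were listed. Slc12a4 (KCC1) had 2.51 ± 0.597 (HC), 2.31 ± 0.131 (Ctrl), 2.14 ± 0.702 (NLH) and 2.15 ± 1.29 FPKM (LH) and Slc12a7 (KCC4) 0.383 ± 0.124 (HC), 0.425 ± 0.164 (Ctrl), 0.419 ± 0.0568 (NLH) and 0.427 ± 0.227 FPKM (LH), both below Slc12a5. Slc12a9, an orphan member, had 2.62 ± 0.249 FPKM in Ctrl and 1.80 ± 0.898 FPKM in LH mice (log2 difference -0.62, SE 0.23, limma adjusted p = 0.307). Group means ran from 0.0564 to 0.135 FPKM for Slc12a8. The family's median log2 difference was -0.02 in NLH vs. HC, where that of all genes was 0.08.

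The WNK kinases act through SPAK (Stk39) and OSR1 (Oxsr1), which phosphorylate both cotransporters, stimulating NKCC1 and inhibiting KCC2. Of 8 genes, 7 were listed. Wnk1 had 28.5 ± 1.39 (HC), 26.3 ± 2.63 (Ctrl), 32.4 ± 4.26 (NLH) and 33.7 ± 6.67 FPKM (LH), with log2 differences of 0.30 in NLH vs. Ctrl (SE 0.13, limma adjusted p = 0.850) and 0.34 in LH vs. Ctrl (SE 0.13, limma adjusted p = 0.336). Cab39l, a scaffold of SPAK and OSR1, had 4.56 ± 0.450 FPKM in Ctrl and 6.96 ± 2.35 FPKM in LH mice (limma adjusted p = 0.352). Group means ran from 1.099 to 1.87 FPKM for Stk39 and from 6.43 to 7.83 FPKM for Oxsr1. Group means ran from 5.59 to 6.63 FPKM for Wnk2, from 0.999 to 1.95 FPKM for Wnk4 and from 11.9 to 13.1 FPKM for Cab39. The list's median log2 difference was 0.14 in NLH vs. HC.

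The genes named from the next 3 lists passed no adjusted threshold and were picked after their values had been seen. All 12 listed partners and regulators of KCC2 were in the table, with a median of 0.09 in NLH vs. HC. Pacsin1, a membrane trafficking protein that binds KCC2, had 18.7 ± 0.813 (HC), 19.9 ± 1.39 (Ctrl), 25.3 ± 3.28 (NLH) and 25.2 ± 3.17 FPKM (LH). Its log2 difference was 0.43 in NLH vs. HC (SE 0.11, limma adjusted p = 0.310) and 0.33 in LH vs. Ctrl (SE 0.11, limma adjusted p = 0.254). Neto2, an auxiliary subunit that binds KCC2, had 3.04 ± 0.948 FPKM in NLH and 4.08 ± 0.907 FPKM in LH mice (limma adjusted p = 0.645). Group means ran from 3.72 to 4.07 FPKM for Bdnf, whose signaling regulates KCC2, from 27.9 to 31.4 FPKM for its receptor gene Ntrk2 and from 0.702 to 0.756 FPKM for the transcription factor gene Egr4.

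Among 12 other routes of chloride and bicarbonate, with a median of 0.08 in NLH vs. HC, Slc4a10, a sodium-driven bicarbonate transporter, had 24.3 ± 2.34 FPKM in Ctrl and 32.2 ± 5.20 FPKM in LH mice (log2 difference 0.39, SE 0.13, limma adjusted p = 0.268). Clcn3, an endosomal chloride-proton exchanger, gave 0.33 in that comparison (limma adjusted p = 0.322) and Clcn2, a chloride channel, -0.46 (limma adjusted p = 0.322). Of the sodium/potassium pump, whose gradients drive both cotransporters, 6 of 6 genes were listed, with a median of 0.13 in NLH vs. HC. Atp1b1 had 228 ± 7.67 (HC), 227 ± 11.0 (Ctrl), 276 ± 31.7 (NLH) and 262 ± 35.4 FPKM (LH), with 0.26 in NLH vs. HC (SE 0.10, limma adjusted p = 0.616).

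Assembled transcripts without an Ensembl identifier at the same loci were not counted above. Slc12a5 had 3, with at most 0.992 FPKM in a mouse and 3.92% of the FPKM of the locus, and Slc12a2 had 2, with at most 1.79 FPKM and 21.0%. With them included, the log2 ratio differed by 0.13 in NLH vs. HC (SE 0.18, exact permutation p = 0.543).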

How the data were processed

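Members and gene lists were chosen with earlier results of these data known. The authors deposited FPKM per transcript and mouse, and their methods name HISAT2 (mm10), String Tie and Cufflinks. The submitters' processing notes name STAR (2.42a) and StringTie (1.2.3) instead, so which aligner made the values is not settled. Here limma 3.58.1 in R 4.3.3 was run on log2 of FPKM with 0.1 added, over all 16 mice with a mean per group and with trend and robust options. P-values were adjusted by Benjamini-Hochberg over 80137 transcripts or 18287 gene sums. Ratios, shares and sums had exact two-sided permutation tests (Python 3.11.15), whose p-values rank the observed difference of means among all regroupings of these mice. Named transcripts had a mean of at least 1 FPKM or 5% of their gene, and annotation came from GENCODE vM21. All listed SLC12 and WNK pathway genes were to be named, and 1 of them and 1 exon sequence are not reported here. The fragments behind each library were inferred from how FPKM values step at 1343 loci, assuming fragments of 200 bases, and 76.6% to 85.9% of values came within 0.1 of a whole number. Alternatives varied the added constant, a filter on low FPKM, scaling, the samples fitted, a replicate block, the test and the isoforms, and left out each mouse. The sums and full-length ratios with mice left out, LH replicates 3 and 4 left out together, the groupings of transcripts and the marker relations were added after the data had been seen. The LH replicates left out together, the grouping by first exon, the full-length ratio, the ratio with assembled transcripts and the marker relations were chosen with the values in view.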

Additional observations from a re-analysis of the deposited data

Results flagged for a closer look

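Assembled transcripts without an Ensembl identifier enter only the last ratio given above, and 2 of them had a mean in LH mice above the highest of the 8 HC and Ctrl mice. The share of all transcripts that meet this rule was not computed, so that the count is a description. At the Slc12a2 locus, MSTRG.34312.2 was at 1.49, 1.40, 1.71 and 1.79 FPKM in LH mice (mean 1.60), and the highest HC or Ctrl mouse had 1.43 FPKM. At the Slc12a5 locus, MSTRG.42376.7 was at 0.274 and 0.445 FPKM in LH replicates 2 and 3 and near 0 in LH replicates 1 and 4 (mean 0.180), and the highest HC or Ctrl mouse had 1.53e-04 FPKM. In NLH mice MSTRG.34312.2 was at 1.55, 0.961, 1.09 and 1.24 FPKM, so that NLH replicate 1 also lay above every HC and Ctrl mouse. Log2 differences were 0.42 in LH vs. Ctrl (SE 0.18) and 0.39 in LH vs. NLH for MSTRG.34312.2, and 1.09 in both (SE 0.43) for MSTRG.42376.7. They are given without a p because these transcripts were picked for their LH values.

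The per-mouse values of all transcripts, sums, shares, ratios and choroid plexus markers reported above, and of the assembled transcripts, formed 127 groups of 4 whose highest value reached 0.1, and in 9 of them 1 mouse stood apart by Dixon's 95% limit, which chance passes in about 1 of 20 groups. The ratio of Slc12a5 to Slc12a2 was 8.06 in LH replicate 4, just past the limit, and did not pass it on the log2 scale. With full-length transcripts only, the ratio of Ctrl replicate 3 was 3.24, or 1.70 on the log2 scale. Slc12a5 without the short transcript was at 25.97 FPKM in HC replicate 4, and the exon 1b share at 59.3% in LH replicate 1. The short transcript had an estimated 230.3 fragments in LH replicate 4, the shallowest library. Slc12a5-202 was at 0.292 FPKM in Ctrl replicate 2 alone. Among assembled transcripts at the Slc12a2 locus, MSTRG.34312.2 was at 1.13 FPKM in HC replicate 4 and MSTRG.34312.3 at 0.582 FPKM in LH replicate 4.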

How the results depend on the processing

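Of 1010 values recomputed for 75 results, 885 kept their direction and call or moved little, and 39 results did so throughout. Where values changed, the cause was not tested. With the equal-variance test on FPKM, read at an unadjusted p under 0.05, the short transcript passed in NLH vs. HC (0.70) and Slc12a5-204 in NLH vs. HC (-0.58). Limma's own unadjusted p, whose spread comes from the mice of all groups, was under 0.05 for these too (0.00106 and 0.0278). The short transcript was also under it in LH vs. NLH (0.35), which is no test because its selection used the LH mice. With the equal-variance test Slc12a5-201 gave 0.076 in Ctrl vs. HC and 0.12 in NLH vs. HC, and Slc12a2 0.015 in NLH vs. HC. With size factors, Slc12a5 gave -0.0071 in Ctrl vs. HC and Slc12a5-207 -0.059 in NLH vs. HC. Without LH replicates 3 and 4, Slc12a5 gave 0.325 (LH vs. Ctrl). For LH vs. NLH, Slc12a5-201 then gave 0.193 and the share of Slc12a5-204 -0.624 points. With the highest isoform alone the log2 ratio in LH vs. NLH was 0.040.

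Transcripts called in Ctrl vs. HC numbered 3, but 1 with 1 added, 0 with a mean FPKM of at least 1, 15 with only the 2 groups fitted, 0 with the replicate block, 5292 at an unadjusted p by the equal-variance test, and, with 1 mouse left out, 0 (without Ctrl replicate 3) to 13 (without HC replicate 2). Transcripts called in NLH vs. Ctrl numbered 10, but 3 with a mean FPKM of at least 1, 34 with only the 2 groups fitted, 0 with the replicate block, 5707 at an unadjusted p by the equal-variance test, and, with 1 mouse left out, 8 (without Ctrl replicate 1) to 47 (without NLH replicate 1). Transcripts called in LH vs. Ctrl numbered 37, but 65 with 0.01 added, 14 with 1 added, 66 with a mean FPKM of at least 1, 133 with size factors, 5 with the replicate block, 6081 at an unadjusted p by the equal-variance test, 331 without LH replicates 3 and 4, and, with 1 mouse left out, 12 (without Ctrl replicate 1) to 310 (without LH replicate 2). Transcripts called in LH vs. NLH numbered 33, but 58 with 0.01 added, 11 with 1 added, 4 with a mean FPKM of at least 1, 20 with only the 2 groups fitted, 3535 at an unadjusted p by the equal-variance test, 76 without LH replicates 3 and 4, and, with 1 mouse left out, 16 (without NLH replicate 2) to 242 (without NLH replicate 1). Transcripts called in NLH vs. HC numbered 19, but 6 with 1 added, 33 with size factors, 43 with only the 2 groups fitted, 0 with the replicate block, 6082 at an unadjusted p by the equal-variance test, and, with 1 mouse left out, 9 (without NLH replicate 3) to 41 (without NLH replicate 1).

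The labels give no pairing of same-numbered mice. Their deviations from group means had a median r of -0.00186 over 24 pairs, none over 0.1. Of 16 mice, 6 correlated best with their own number, out of 4 numbers. Such values cannot show whether same-numbered mice shared a cage, day or preparation. With the replicate block, the share of the short transcript in NLH vs. HC differed by 9.87 points, with an exact sign-flip p of 0.125, the smallest that 4 pairs allow.

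With 1 mouse left out in turn, these results of comparisons with a test changed direction or call. Slc12a5-204 ranged from -0.17 to 0.048 in Ctrl vs. HC, -0.057 to 0.25 in LH vs. NLH. Slc12a5-209 ranged from -0.44 to 1.02 in Ctrl vs. HC, -0.17 to 1.29 in NLH vs. HC. Slc12a5-207 ranged from -0.090 to 0.17 in Ctrl vs. HC, -0.13 to 0.070 in NLH vs. HC. Slc12a5-201 ranged from -0.47 to 0.45 in Ctrl vs. HC, -0.42 to 0.47 in NLH vs. HC. Slc12a5, summed, ranged from -0.022 to 0.044 in Ctrl vs. HC. Slc12a2, summed, ranged from -0.058 to 0.24 in NLH vs. Ctrl, -0.076 to 0.48 in LH vs. NLH, -0.13 to 0.17 in NLH vs. HC. The log2 ratio ranged from -0.36 to 0.13 in LH vs. NLH, -0.039 to 0.25 in NLH vs. HC. As shares in percentage points, Slc12a5-201 ranged from -2.06 to 4.42 in Ctrl vs. HC, -2.33 to 3.65 in NLH vs. HC. Slc12a5-204 ranged from -1.58 to 0.217 in Ctrl vs. HC, -0.934 to 1.34 in LH vs. NLH. Slc12a5-207 ranged from -2.79 to 6.27 in Ctrl vs. HC. The short transcript ranged from 7.29 to 11.6 in NLH vs. HC. Slc12a5-209 ranged from -1.17 to 1.21 in Ctrl vs. HC, -0.673 to 1.59 in NLH vs. HC. Differences given without a p also changed sign in such repeats, for Slc12a5-207 in NLH vs. Ctrl (-0.19 to 0.091), Slc12a5-201 in NLH vs. Ctrl (-0.58 to 0.65), Slc12a5-207 in LH vs. Ctrl (-0.025 to 0.25), Slc12a2 in LH vs. Ctrl (-0.024 to 0.54), the log2 ratio in NLH vs. Ctrl (-0.12 to 0.17), the log2 ratio in LH vs. Ctrl (-0.29 to 0.16), the share of Slc12a5-201 in NLH vs. Ctrl (-4.59 to 3.18), the share of Slc12a5-207 in LH vs. Ctrl (-6.84 to 2.23) and the share of Slc12a5-209 in NLH vs. Ctrl (-0.371 to 1.83). With 3 mice in a group an exact test cannot reach 0.05.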
